A study of Mus musculus with 9 samples.

Results

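The genes described here encode the subunits, activators, regulator and assembly chaperones of the mouse proteasome. They were taken as every row of the deposited count table whose symbol is Psm followed by one letter from a to g and a number, which gave 48 genes of the 55367 listed. Of these, 47 passed the filter on low counts, and Psmb11 had 0 counts in all 9 libraries. RNA came from mouse left ventricle, with the infarct core and the surrounding zone included, and was sequenced in bulk as total RNA. The 3 groups of 3 libraries were hearts after sham surgery (Sham), hearts after myocardial infarction (MI), and hearts after infarction with BPD treatment (MI+BPD). The series text places the collection at day 14 after MI and states no time of its own for Sham. The labels name no genotype, strain, age, sex, dose or schedule, do not spell out BPD, and list no vehicle for the other groups. Nothing in the labels says whether each library is 1 animal, so p-values measure the spread between libraries, which may be technical.

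The 26S proteasome degrades proteins that carry ubiquitin chains. Its 20S core is a barrel of outer alpha rings and inner beta rings, and 3 beta subunits hold the proteolytic sites: Psmb6 (caspase-like), Psmb7 (trypsin-like) and Psmb5 (chymotrypsin-like). Interferon gamma induces replacements for them, Psmb9 for Psmb6, Psmb10 for Psmb7 and Psmb8 for Psmb5, and the resulting immunoproteasome, constitutive in many leukocytes, shifts the peptides available to MHC class I. The 19S cap, with an ATPase ring and non-ATPase subunits, binds, unfolds and feeds substrates, and PA28 and PA200 are alternative caps. Heart muscle relies on this system for the turnover of sarcomere proteins.

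The 4 upstream stretches below belong to catalytic subunits on either side of the contrast, Psmb8 and Psmb9 that rose after infarction and Psmb5 and Psmb6 that fell under the same scaling. They come from RefSeq on build GRCm38.p6 and are written 5′ to 3′ on the gene's own strand up to the base before the annotated start. The Psmb8 stretch is chr17:34198045-34198194 on the plus strand, and its capitals mark a match to the gamma-activated site TTCNNNGAA. The Psmb9 stretch, chr17:34187331-34187555 on the minus strand, is the whole interval of 225 bases that separates its start from the start of Tap1, and its capitals mark a CCAAT box read on the opposite strand. The Psmb5 stretch (chr14:54617996-54618145, minus strand) and the Psmb6 stretch (chr11:70525207-70525356, plus strand) each have in capitals a match to the antioxidant response element core TGACNNNGC, the kind of element through which NRF1 drives proteasome genes.
Psmb8: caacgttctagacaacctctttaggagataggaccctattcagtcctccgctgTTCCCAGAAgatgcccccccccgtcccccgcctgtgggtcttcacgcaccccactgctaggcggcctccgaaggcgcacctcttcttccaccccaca
Psmb9: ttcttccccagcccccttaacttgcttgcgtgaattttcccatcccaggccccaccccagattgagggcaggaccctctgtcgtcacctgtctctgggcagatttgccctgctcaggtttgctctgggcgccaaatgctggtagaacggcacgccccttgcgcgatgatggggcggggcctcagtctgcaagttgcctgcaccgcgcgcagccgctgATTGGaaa
Psmb5: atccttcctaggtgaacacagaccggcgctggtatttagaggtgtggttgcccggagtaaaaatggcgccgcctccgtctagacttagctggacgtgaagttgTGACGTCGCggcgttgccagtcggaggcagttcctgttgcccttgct
Psmb6: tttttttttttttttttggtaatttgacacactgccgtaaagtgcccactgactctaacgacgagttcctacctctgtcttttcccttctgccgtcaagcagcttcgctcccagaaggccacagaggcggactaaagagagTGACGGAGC

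Promoter windows of 250 bases before to 50 after the start were used for 40 of the 48 genes and were searched on both strands. Windows on a chromosome kept out of the search were not used, for members and for all genes alike. The antioxidant response element core stood in 6 of the 40 (15%) and in 13.99% of all 27025 genes with a window used. The core of the interferon-stimulated response element, GAAANNGAA, stood in 7 of 40 (17.5%) against 9.761% of all genes, the gamma-activated site in 3 of 40 (7.5%) against 9.554%, and CCAAT in 14 of 40 (35%) against 41.06%. Of the 40 genes, 28 were called lower in MI against Sham with TMM. Among these 28, 5 held the antioxidant core, 5 the interferon-stimulated core, 2 the gamma-activated site and 11 CCAAT. Besides Psmb8, the gamma-activated site stood in Psmd2 and Psmg1, both called lower. The interferon-stimulated core stood in neither Psmb8 nor Psmb9, and the window of Psmb10 held none of the 4 motifs. A match describes these letters and says nothing of binding, and 0 matches of another motif overlapped the capitals shown.

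Total counts per library lay between 14451410 and 19269072. Proteasome genes took 0.288% to 0.300% of all counts in Sham, 0.302% to 0.322% in MI and 0.288% to 0.307% in MI+BPD. Mitochondrially encoded genes took 34.4% to 35.2% of the counts in Sham, 11.4% to 18.2% in MI and 17.6% to 25.7% in MI+BPD. With these left out of the total, the proteasome share was 0.444% to 0.458% in Sham, 0.341% to 0.393% in MI and 0.367% to 0.387% in MI+BPD, so the Sham libraries stood above all others. The choice of total therefore sets the direction of many single genes. Levels are given as CPM, counts relative to the library size after scaling by trimmed mean of M values (TMM), and changes as log2 fold changes from edgeR's quasi-likelihood test, with the standard error (SE) and a Benjamini-Hochberg adjusted p over 15138 genes, called under 0.05.

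After infarction, most proteasome genes were lower relative to other genes, while the inducible subunits Psmb8 and Psmb9 were higher. In MI against Sham, 35 of the 47 tested members were called lower and 2 higher with TMM scaling, and 10 did not pass; scaled to library totals the counts were 3 lower and 23 higher, and to totals without mitochondrial genes 24 lower and 9 higher. Psmb7, Psme1 and Psme4 were the 3 members called lower under library totals. Over all genes, 31.9% were called lower and 37% higher with TMM, 11.7% and 69.3% with library totals, and 20.7% and 52.8% with totals without mitochondrial genes. The median log2 change of the members was −0.54 and that of all genes tested 0.07, with members between −1.13 (Psme4) and 0.82 (Psmb8). The median of all genes was 0.07, 0.81 and 0.40 under these scalings. With TMM, 43 of 47 members lay below it; another scaling moves the members and that median together, so this count is nearly fixed by construction and says nothing of stability. In bulk tissue, fewer cells of a type and less RNA per cell cannot be told apart.

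**Figure D1:**
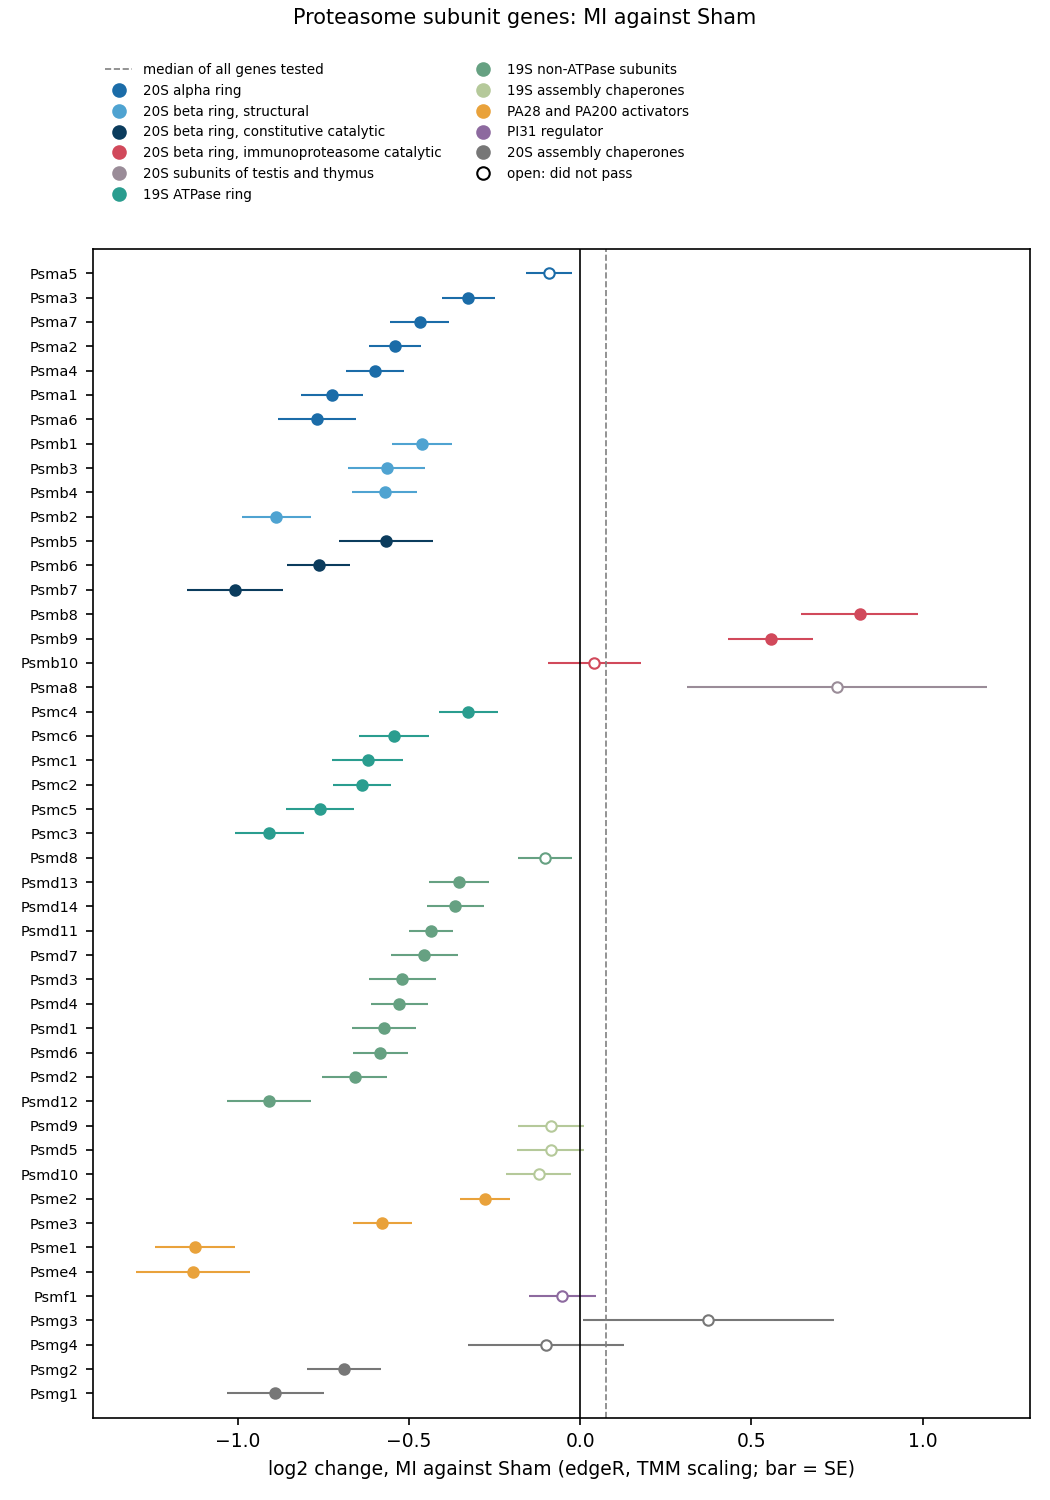
Log2 change (x axis, edgeR with TMM scaling) of the 47 tested proteasome genes in MI against Sham, grouped by role, with bars for the SE and filled points for an adjusted p under 0.05; the dashed line is the median of all genes tested, 0.07. The 35 filled points left of zero span all large roles, and Psmb8 and Psmb9 are the 2 filled points right of it; scaled to library totals, 23 members were called higher and 3 lower.

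**Figure D2:**
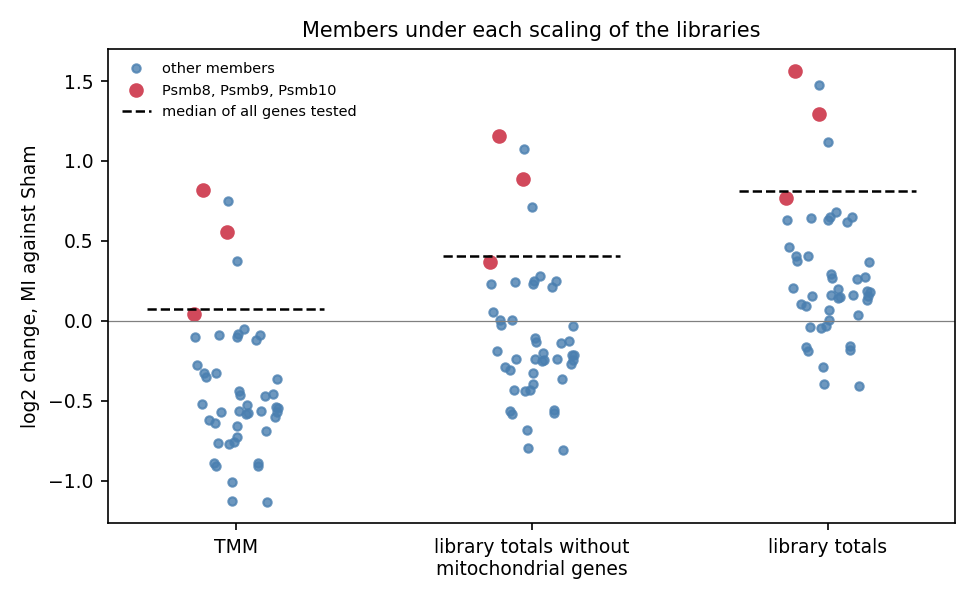
Log2 change in MI against Sham (y axis) of each of the 47 members under 3 scalings of the libraries (x axis), with the median of all genes tested as a dashed line and the immunoproteasome subunits in red. Members and dashed line shift together, as a change of scaling must shift them, and with TMM 43 of 47 members lie below the line; 35 are called lower with TMM and 3 with library totals.

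Among the catalytic subunits, the inducible ones and their constitutive partners moved apart. Psmb8, the inducible chymotrypsin-like subunit, was at 9.97, 13.2 and 11.1 CPM in Sham 1 to 3, at 24.8, 19.2 and 16.4 CPM in MI 1 to 3, and at 14.4, 17.4 and 17.9 CPM in MI+BPD 1 to 3. Every MI library was above every Sham library, and MI 1 stood highest. The log2 change in MI against Sham was 0.82 (SE 0.17, edgeR adjusted p = 0.00216), a 1.76-fold rise that kept its sign under all scalings tried. Its partner Psmb5 was at 21.9, 27.0 and 24.2 CPM in Sham, at 13.4, 17.8 and 18.3 CPM in MI, and at 16.1, 18.5 and 19.2 CPM in MI+BPD. All MI libraries were below all Sham libraries. The log2 change was −0.57 (SE 0.14, edgeR adjusted p = 0.00479) with TMM and 0.16 with library totals.

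Psmb9, which replaces the caspase-like subunit, was at 5.86, 6.12 and 5.11 CPM in Sham, at 8.79, 8.67 and 7.64 CPM in MI, and at 6.11, 6.93 and 7.06 CPM in MI+BPD. The MI libraries lay above all others, and the MI+BPD libraries overlapped those of Sham. The log2 change in MI against Sham was 0.56 (SE 0.12, edgeR adjusted p = 0.0031), in the same direction under all scalings. Exons of Psmb9 and Tap1 overlap by 212 bases on opposite strands in GENCODE M21, and the strand setting of the counting is not given, so reads there cannot be assigned with certainty. Its partner Psmb6 was at 77.0, 84.1 and 87.1 CPM in Sham, at 43.5, 48.2 and 54.5 CPM in MI, and at 57.0, 53.9 and 52.1 CPM in MI+BPD. It fell by 0.76 on the log2 scale (SE 0.09, edgeR adjusted p = 0.00012) with TMM, and the value was −0.04 with library totals.

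Psmb10, the inducible trypsin-like subunit, did not pass the test with TMM. It was at 25.7, 26.5 and 25.8 CPM in Sham, at 23.8, 26.5 and 30.0 CPM in MI, and at 22.2, 28.8 and 20.2 CPM in MI+BPD, with all groups overlapping. The log2 change in MI against Sham was 0.04 (SE 0.14, edgeR adjusted p = 0.799) with TMM, and 0.77 and called with library totals. Psmb7, its partner, was at 155, 151 and 159 CPM in Sham, at 63.7, 72.2 and 95.3 CPM in MI, and at 97.9, 84.9 and 83.3 CPM in MI+BPD. It fell by 1.01 on the log2 scale (SE 0.14, edgeR adjusted p = 0.000222), and MI 3 stood above the other MI libraries. Psmb7 exons overlap those of Nek6 by 405 bases on the opposite strand, and Nek6 rose by 1.82 (edgeR log2, adjusted p = 3.4e-05).

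**Figure D3:**
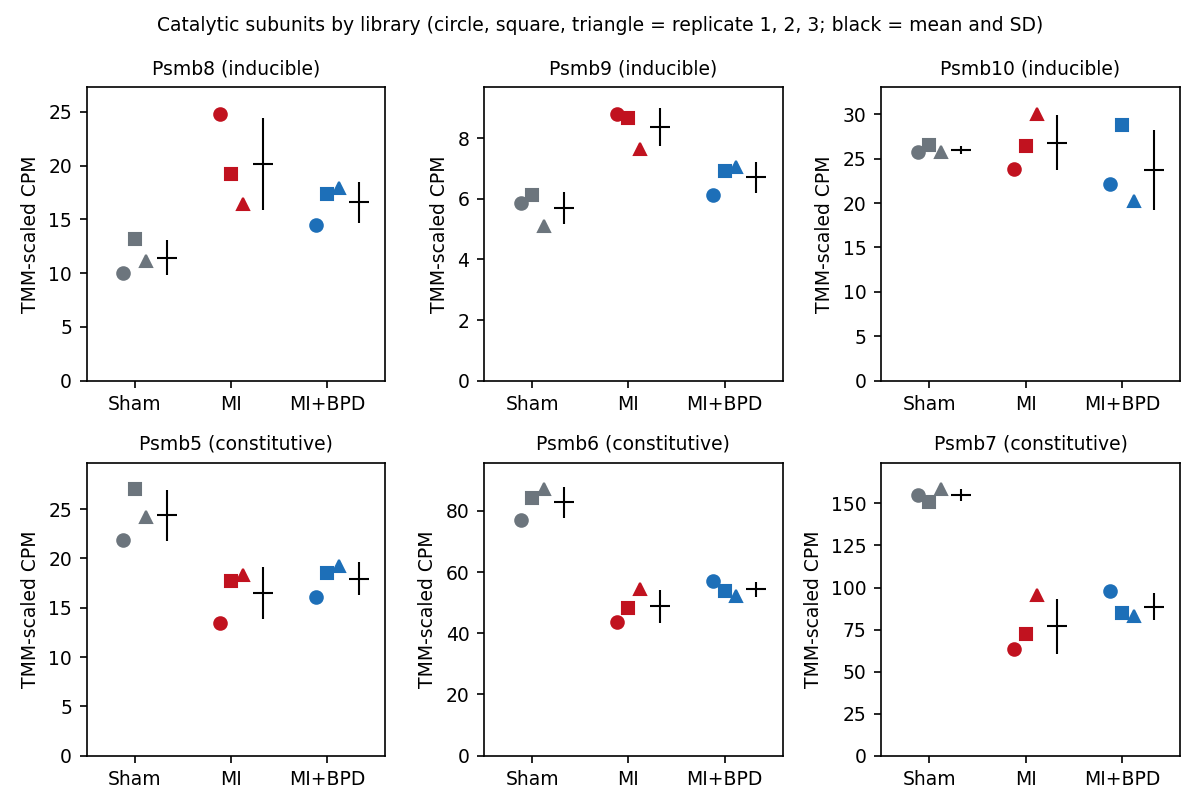
TMM-scaled CPM (y axis, from 0) of the inducible subunits (top row) and their constitutive partners (bottom row) in each library by group, with mean and SD of 3 libraries in black. Psmb8 and Psmb9 are above Sham in every MI library, Psmb10 overlaps Sham, and Psmb5, Psmb6 and Psmb7 are below Sham in every MI library; with library totals the Psmb5 change turns to 0.16.

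The ratio of each inducible subunit to its partner within a library does not depend on how libraries are scaled. Sham libraries held 45.6, 48.9 and 45.9 Psmb8 reads per 100 Psmb5 reads, MI libraries 185, 108 and 89.9, and MI+BPD libraries 89.9, 94.2 and 93.1. All 6 infarcted libraries were above Sham, and MI 1 stood far above the rest. Per 100 Psmb6 reads, Sham libraries held 7.60, 7.28 and 5.87 Psmb9 reads, MI libraries 20.2, 18.0 and 14.0, and MI+BPD libraries 10.7, 12.9 and 13.5, so the 3 groups did not overlap. Psmb10 reads per 100 Psmb7 reads came to 16.6, 17.5 and 16.3 for the Sham libraries, 37.4, 36.7 and 31.5 for the MI libraries, and 22.6, 33.9 and 24.3 for the MI+BPD libraries. Here too Sham was lowest, and MI+BPD 2 fell within the MI range.

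In MI against Sham, the ratios were 2.59-fold (Psmb8 to Psmb5), 2.49-fold (Psmb9 to Psmb6) and 2.09-fold (Psmb10 to Psmb7) higher. In MI+BPD against Sham they were 1.97-fold, 1.79-fold and 1.58-fold higher. Each of these 6 comparisons gave an exact 2-sided permutation p of 0.1, the smallest that 3 libraries against 3 allow, and 0.129 after adjustment over the 9 ratio tests, so none can pass 0.05. In MI+BPD against MI the log2 differences were −0.39, −0.48 and −0.40, with exact permutation p of 0.4, 0.1 and 0.2 (adjusted 0.4, 0.129 and 0.225); the Psmb9 ratio was lower in every MI+BPD library. Without MI 1 the Psmb8 ratio difference was −0.09. Summed per kilobase of principal transcript, the inducible subunits made up 9.99% to 11.0% of the catalytic level in Sham, 18.4% to 24.3% in MI and 14.9% to 18.98% in MI+BPD.

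**Figure D4:**
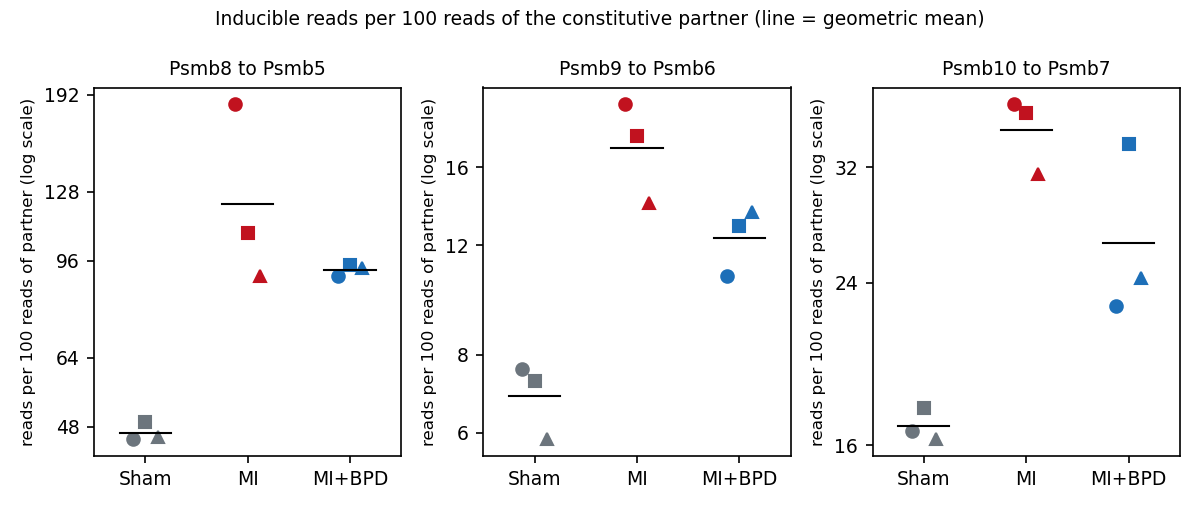
Reads of each inducible subunit per 100 reads of its constitutive partner (y axis, log scale) in every library by group, with the geometric mean as a line. All MI and MI+BPD libraries lie above all Sham libraries in each pair, and MI+BPD lies below MI without overlap for Psmb9 to Psmb6 alone.

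Levels between members are compared as CPM per kilobase of the principal transcript. In Sham, Psmb7 (134 ± 3.21, SD, n = 3) and Psmc3 (127 ± 2.52) were the highest, and Psma6 (105 ± 0.837) and Psmb6 (104 ± 6.47) came next and did not differ beyond their spread. Psmb5, the least abundant constitutive catalytic subunit, was at 27.1 ± 2.87, above the inducible Psmb10 at 19.8 ± 0.337. Psmb8 at 7.025 ± 1.007 and Psmb9 at 4.21 ± 0.389 were near the bottom. In MI, Psmb8 reached 12.4 ± 2.61 and Psmb9 6.19 ± 0.467, while Psmb7 was at 66.4 ± 14.1, and Psmb5 at 18.3 ± 2.96. On average Psmb8 and Psmb9 stayed below all constitutive partners, though in MI 1 Psmb8 stood at 1.02 times the per-kilobase level of Psmb5. Psmb10, at 20.4 ± 2.36 in MI, overlapped Psmb5 across libraries but stood above it within each MI library.

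The alpha ring, which gates the core, had 6 of 7 members called lower in MI against Sham with TMM (median log2 change −0.54), and 3 higher and 0 lower with library totals, where 69.3% of all genes were called higher. The structural beta subunits had 4 of 4 lower with TMM (median −0.57), and 1 higher and 0 lower with library totals. Over all genes, 31.9% were called lower with TMM and 11.7% with library totals. Psma6 was at 109, 109 and 110 CPM in Sham and at 56.3, 60.5 and 76.1 CPM in MI, a log2 change of −0.77 (SE 0.11), and −0.04 with library totals. Psma5 did not pass at −0.09 (SE 0.07) and was 0.64 with library totals, its levels being 44.4 to 49.0 CPM in Sham and 42.3 to 44.6 CPM in MI. Among the beta subunits, Psmb2 had the lowest change, −0.89 (SE 0.10), and Psmb1 the highest, −0.46 (SE 0.09), which became 0.27 with library totals. Psmb2 levels did not overlap, at 59.7 to 63.8 CPM in Sham and 30.1 to 38.2 CPM in MI.

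In the 19S cap, all 6 ATPases (median −0.63) and 10 of 11 non-ATPase subunits (median −0.52) were called lower with TMM, where 31.9% of all genes were. Library totals gave 1 ATPase and 7 non-ATPase subunits higher and 0 lower, where 69.3% of all genes were higher and 11.7% lower. Psmc3 had the lowest change of the ATPases, at 204, 208 and 212 CPM in Sham and 101, 105 and 127 CPM in MI, or −0.91 (SE 0.10), and Psmc4 the highest, −0.33 (SE 0.09) with TMM and 0.40 with library totals. Psmd12 was at 127, 122 and 125 CPM in Sham and at 58.0, 60.6 and 81.0 CPM in MI, a change of −0.91 (SE 0.12). MI 3 was the highest MI library for both. Psmd2, a large scaffold subunit, was at 217 to 236 CPM in Sham and 132 to 157 CPM in MI, a change of −0.66 (SE 0.10) with TMM and 0.07 with library totals. Psmd14, the deubiquitinase of the lid, changed by −0.36 (SE 0.08, and 0.37 with library totals), and Psmd4, a ubiquitin receptor, by −0.53 (SE 0.08, and 0.20 with library totals). Psmd8 did not pass, at −0.10 (SE 0.08) with TMM and 0.63 with library totals.

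Of the assembly chaperones of the cap, 0 of 3 (Psmd5, Psmd9 and Psmd10) passed with TMM. Their log2 changes were −0.09, −0.08 and −0.12 with SE of 0.10, 0.10 and 0.09. All 3 were called higher with library totals, where 69.3% of all genes were. Psmd10, also known as gankyrin, was at 9.62 to 10.9 CPM in Sham and 8.88 to 9.85 CPM in MI. Of the 20S chaperones, Psmg1 (−0.89, SE 0.14) and its partner Psmg2 (−0.69, SE 0.11) were called lower, and Psmg2 was at 0.04 with library totals. Psmg1 was at 14.8 to 17.8 CPM in Sham and at 7.28 to 10.1 CPM in MI, with no overlap. Psmg3 (0.37, SE 0.37) and Psmg4 (−0.10, SE 0.23) did not pass, and their levels of 0.823 to 2.44 and 2.56 to 4.02 CPM in Sham and MI rested on few reads.

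All 4 activator genes were called lower with TMM, where 31.9% of all genes were, and by very different amounts. Psme1, the PA28 alpha subunit, was at 97.99, 102 and 105 CPM in Sham, at 44.0, 43.1 and 52.8 CPM in MI, and at 63.3, 51.9 and 47.7 CPM in MI+BPD. The MI libraries were far below Sham, a log2 change of −1.12 (SE 0.12, edgeR adjusted p = 6.6e-05). Psme2, the beta subunit that joins Psme1 in 1 ring and is likewise known as an interferon-induced gene, was at 43.8, 50.4 and 48.3 CPM in Sham, at 41.0, 37.7 and 38.8 CPM in MI, and at 39.3, 40.4 and 37.7 CPM in MI+BPD. Its change was −0.28 (SE 0.07, edgeR adjusted p = 0.00755) with TMM, 0.46 with library totals and 0.05 without mitochondrial genes, and it did not pass with no low-count filter (−0.23). A further row, Psme2b, with 40 to 139 counts, may share reads with it. Of the 3 interferon-inducible beta subunits and the PA28 pair, Psmb8 and Psmb9 rose, and Psme1 and Psme2 were lower with TMM; Psme1 alone of the PA28 pair stayed lower with library totals (−0.40).

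Psme4, the PA200 activator found in the nucleus, was at 562, 543 and 569 CPM in Sham, at 226, 226 and 312 CPM in MI, and at 358, 267 and 271 CPM in MI+BPD. MI 3 and MI+BPD 1 stood highest in their groups and below all Sham libraries. Its log2 change of −1.13 (SE 0.17, edgeR adjusted p = 0.000298) was the lowest of all members. Psme3, the nuclear PA28 gamma, was at 71.7, 74.9 and 76.7 CPM in Sham, at 46.2, 48.9 and 54.5 CPM in MI, and at 63.4, 54.6 and 55.1 CPM in MI+BPD, with MI lowest. That is −0.58 (SE 0.09) with TMM and 0.15 with library totals. Psmf1, the regulator PI31, did not pass, at −0.05 (SE 0.10) with TMM, 0.68 with library totals and 0.28 with totals without mitochondrial genes; its libraries overlapped at 16.5 to 20.9 CPM in Sham and 17.3 to 18.4 CPM in MI.

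The tissue-restricted subunits were at or near the limit of detection. Psmb11, of the thymoproteasome, had 0 counts everywhere, which allows up to 0.119 to 0.274 CPM depending on the library (3 counts, counting error only). Psma8, of the testis, was at 0.823, 0.350 and 0.457 CPM in Sham, at 0.633, 1.18 and 0.920 CPM in MI, and at 0.779, 0.513 and 1.117 CPM in MI+BPD. The groups overlapped and the change did not pass (0.75, SE 0.44, edgeR adjusted p = 0.154) with TMM, though it did with library totals (1.47). Markers of thymus and testis summed to 1.27 CPM or less in every library, with 2 of 6 at 0 in each group.

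Markers of the cell types in the tissue moved with these groups. The 8 cardiomyocyte markers, all detected, summed to 83626 to 87618 CPM in Sham, 17326 to 30515 CPM in MI and 29540 to 46381 CPM in MI+BPD, highest in MI 3 and MI+BPD 1 of their groups. Of the 35 members called lower, MI 3 was the highest MI library for 34 and MI 1 the lowest for 30. In the other groups, MI+BPD 1 was the highest for 27 and Sham 3 for 27. How many of all genes share this order of libraries was not computed. The 8 pan-leukocyte markers summed to 108 to 126 CPM in Sham, 349 to 523 CPM in MI and 337 to 451 CPM in MI+BPD. Within MI they were highest in MI 1 and lowest in MI 3, the same order as for Psmb8 and Psmb9. Psmb10 ran in the opposite order, at 23.8, 26.5 and 30.0 CPM in MI 1 to 3. The T and NK cell markers summed to 1.98 to 3.20 CPM in Sham and 6.21 to 12.4 CPM in MI, the B and plasma cell markers to 2.10 to 2.74 and 4.37 to 383 CPM with the highest sum in MI 1, and the 8 macrophage markers to 226 to 280 and 495 to 785 CPM. The fibroblast markers, 7 of 7 called higher, summed to 947 to 1068 CPM in Sham and 9583 to 14067 CPM in MI, and 5 of 6 endothelial markers were called lower. These calls are with TMM, where 37% of all genes were called higher and 31.9% lower. With library totals the shares of all genes were 69.3% and 11.7%. The part of these cell types in the subunit changes was not tested.

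**Figure D5:**
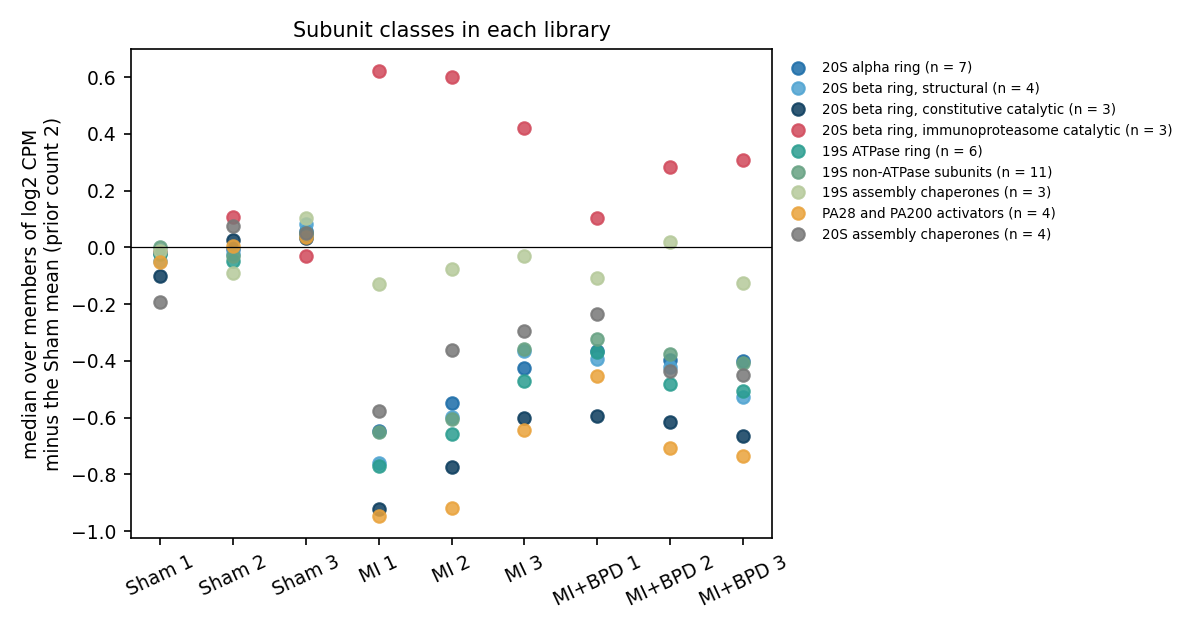
Median over the members of each role with at least 3 tested members of log2 CPM minus the Sham mean (y axis, TMM scaling, prior count 2) in each of the 9 libraries (x axis). The median of the 3 immunoproteasome subunits is positive in all MI and MI+BPD libraries, between 0.10 in MI+BPD 1 and 0.62 in MI 1. That median hides Psmb10, which was below its Sham mean of 26.0 CPM in MI 1 (23.8), MI+BPD 1 (22.2) and MI+BPD 3 (20.2). Psmb10 was above that mean in the other MI and MI+BPD libraries. The median of the constitutive catalytic subunits lies between −0.92 in MI 1 and −0.59 in MI+BPD 1, and all these medians shift with the scaling.

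Genes that work with the proteasome but carry other names were also mostly lower with TMM. Of 18 tested partners, 14 were called lower and 1 higher in MI against Sham (median −0.51), where 31.9% and 37% of all genes were, and 2 lower and 10 higher with library totals, where 11.7% and 69.3% were. They included Ecpas, a proteasome scaffold (−1.02, SE 0.13), and Zfand5, which stimulates 26S activity in muscle (−0.77, SE 0.10). Ipo9, an importin that carries proteasomes into the nucleus, was the member called higher (0.51, SE 0.07). Akirin2, the adaptor of that import, changed by −0.45 (SE 0.06). Of 16 ubiquitin ligases of striated muscle, 15 were called lower (median −1.57; 31.9% of all genes), and 10 lower and 2 higher with library totals (11.7% and 69.3% of all genes). Asb15 was at −2.66 (SE 0.36) and Fbxo31 at −1.84 (SE 0.15). All 8 cardiomyocyte markers were called lower in the same comparison (median −1.9996), and their part in the ligase values was not tested.

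The list for proteasome gene transcription and p97 was mixed, with 5 of 10 lower and 3 higher with TMM, and 0 lower and 8 higher with library totals; the shares of all genes were 31.9% and 37%, and 11.7% and 69.3%. Nfe2l1, which encodes the NRF1 factor of the proteasome recovery response, was at a mean of 507 CPM in Sham and 349 CPM in MI (−0.54, SE 0.11, and 0.19 with library totals). Ngly1, which deglycosylates NRF1, changed by −0.41 (SE 0.07, and 0.32 with library totals), while Ddi2, the protease that cleaves it, rose by 0.32 (SE 0.08). The small Maf partners Maff (1.71, SE 0.32) and Mafk (0.79, SE 0.20) were also higher, and Nfe2l2 did not pass (−0.02, SE 0.07). Of 6 ubiquitin precursors and E1 enzymes, 2 were called lower, among them Uba1 (−0.37, SE 0.08, and 0.36 with library totals), and 2 higher, Uba6 (0.30, SE 0.08) and Rps27a (0.25, SE 0.09), which is near the shares of all genes, 31.9% and 37%. With library totals 5 of the 6 were higher, where 69.3% of all genes were. The Rps27a call was lost with median-ratio factors (0.21) and without Sham 1 (0.21), Sham 2 (0.25), MI 2 (0.21) or MI+BPD 2 (0.25).

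Genes that act on proteasome products were mostly higher. Of 12 genes for MHC class I processing and loading, 8 were called higher and 1 lower with TMM (median 0.999), where 37% and 31.9% of all genes were. With library totals 11 were higher and 0 lower, where 69.3% and 11.7% of all genes were. Tap1, the peptide transporter that neighbours Psmb9, rose from a mean of 10.4 to 21.5 CPM (1.06, SE 0.20), and the heavy chains H2-K1 (1.17, SE 0.19) and H2-D1 (1.17, SE 0.16), the loading factor Tapbp (0.94, SE 0.11) and Pdia3 (1.18, SE 0.14) rose as well. Canx, a chaperone, was the gene called lower (−0.51, SE 0.12, and 0.22 with library totals). Of 14 tested interferon signalling genes, 10 were called higher and 2 lower (median 0.75; 37% and 31.9% of all genes), with Irf7 at 1.54 (SE 0.20), Irf8 at 1.52 (SE 0.14) and Ifnar1 at 0.89 (SE 0.09). Ifngr2 changed by −0.98 (SE 0.14) and Jak1 by −0.34 (SE 0.08, and 0.40 with library totals). With library totals 13 of the 14 interferon signalling genes were higher and 1 lower (69.3% and 11.7% of all genes). The leukocyte markers given above moved with both lists, and their part was not tested.

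For MI+BPD against MI, the comparison that asks what the treatment changed in the infarcted heart, edgeR called 0 of the 47 members and 0% of all genes in either direction (smallest adjusted p 0.369). At an unadjusted p under 0.05 there were 4 members higher, where 8.62% of all genes were, and 1 lower, where 4.88% were. The median log2 change of the members was 0.13 and that of all genes 0.003, and 39 of 47 members had a value above 0 with TMM, 12 of 47 with library totals (members' median −0.07, all genes −0.20) and 28 of 47 with totals without mitochondrial genes. Libraries did not overlap for 5 members on the higher side (6.63% of all genes) and for 1 on the lower side (7.32%). DESeq2 called 12 genes and 0 members, with 6 members at an unadjusted p under 0.05. Limma-voom called 1063 of 15138 genes and 1 member, Psma6 (log2 0.30, limma-voom adjusted p = 0.0452), with 19 members at an unadjusted p under 0.05. The share of all genes at that unadjusted p was not computed for these tools.

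The members of smallest p were Psmd6, a subunit of the lid, Psme3 and Psma6 on the higher side and Psmb9, Psmb8 and Psmb10 on the lower side. Psmd6 was at 44.6, 46.6 and 54.0 CPM in MI and at 58.1, 54.7 and 54.6 CPM in MI+BPD, all above MI, for a log2 difference of 0.21 (SE 0.08, edgeR adjusted p = 0.369). Psme3 had 0.21 (SE 0.09) and Psma6 0.27 (SE 0.11). Psmb9 had −0.32 (SE 0.12) and, from the levels given above, its 3 MI+BPD libraries lay below all MI libraries. Psmb8 had −0.28 (SE 0.16) and Psmb10 −0.17 (SE 0.13), both with overlap. The constitutive partners had 0.12 (SE 0.14) for Psmb5, 0.16 (SE 0.09) for Psmb6 and 0.20 (SE 0.14) for Psmb7, none of which passed.

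The absence of calls did not hold in 1 of the fits that left out a library. Without MI 3, which had the highest cardiomyocyte marker sum and the highest levels of most members in its group, edgeR called 6 members higher, 12.8% of the 47, where 7.29% of all genes tested were called higher. These were Psma6 (0.41), Psmd12 (0.39), Psmb7 (0.39), Psmc3 (0.34), Psmc5 (0.32) and Psmd6 (0.29). MI 3 was the highest MI library for each of them, as for 34 of the 35 members called lower in MI against Sham. Leaving it out therefore raises their difference by construction, and the fit also estimates the spread anew. The calls depend on that 1 library, and no treatment effect is read from them. Leaving out any other library called 0 members. Of the cardiomyocyte markers, 8 of 8 had a log2 value above 0 in the comparison of all libraries, with a median of 0.73.

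In MI+BPD against Sham, a comparison that shares its Sham libraries with that of MI, 35 members were called lower and 1, Psmb8, higher with TMM, where 27.8% and 31.8% of all genes were; with library totals the counts were 3 lower and 12 higher, where 9.14% and 60.3% of all genes were, and with totals without mitochondrial genes 17 lower and 4 higher, where 17.4% and 44.4% were. The members' median was −0.38 and that of all genes 0.04. The lowest were Psme1 (−0.91, SE 0.12) and Psme4 (−0.90, SE 0.17), and among the catalytic subunits Psmb7 (−0.80, SE 0.14) and Psmb6 (−0.61, SE 0.09). Psmb5 was lower at −0.44 (SE 0.14, edgeR adjusted p = 0.02) with TMM, 0.09 with library totals, and did not pass without Sham 2 (−0.36) or Sham 3 (−0.45). Psmb8 was higher at 0.54 (SE 0.17, edgeR adjusted p = 0.023), and the call was lost without Sham 1 (0.45), Sham 3 (0.52), MI+BPD 2 (0.50) or MI+BPD 3 (0.48). Psmb9 did not pass at 0.24 (SE 0.13, edgeR adjusted p = 0.132) but did with limma-voom (0.29). It was also called higher with library totals and with totals without mitochondrial genes. Psmb10 was at −0.13 (SE 0.14), and 0.40 with library totals.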

How the data were processed

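The authors deposited whole-number read counts for 9 bulk RNA-seq libraries, with genes named by symbol and no normalization. Per the submitters' processing notes, STAR was used, and builds mm10, GRCm39 and mm39 are named without their roles. For the counting program, annotation and strand setting, nothing is given in the sources used here. Counts were fitted in R 4.3.3 with edgeR 4.0.16 (TMM, filterByExpr with minimum count 10 and total 15, robust quasi-likelihood, all 9 libraries, 6 residual degrees of freedom), which left 15138 genes and a biological coefficient of variation of 0.167. The procedure was tested on simulated counts in which few genes changed, up and down alike, so that run cannot speak to the choice of scaling. Pair ratios (0.5 counts added) were compared by 2-sided exact permutation tests. Per-kilobase levels use GENCODE M21 principal transcripts. Reads carry no molecular identifiers, so floors cover counting error only.

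Members, lists, markers and tests were chosen with earlier results of these data known. Values are given for the catalytic, activator, PI31 and tissue-restricted members, the highest and lowest change of each role, members not called, the 3 smallest p per direction in MI+BPD against MI, and up to 4 genes of smallest adjusted p per other list plus any called against its majority; Psmd2, Psmd4, Psmd14, Psmg2, Akirin2, Nfe2l2, Tap1 and Nek6 were added after their values were seen. Some genes that the rule names are not reported here. Alternatives were DESeq2 1.42.0, limma-voom (limma 3.58.1), other scalings, filters, a threshold of 0.01, a replicate block and each library left out.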

Additional observations from a re-analysis of the deposited data

How the results depend on the processing

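Over 64 single-gene results and their 1272 alternatives, 30 lost the call, 11 gained it and 28 changed sign with a call in at least 1 of the fits, all of the last under scaling to totals. The other 1203 kept the call status, though 10 of them changed sign with a call in neither fit, in 7 results. Totals without mitochondrial genes were added after seeing the data. The sizes are set by the scaling; ratios within a library are not. Depth limits Psma8, Psmb11, Psmg3 and Psmg4.

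With library totals, 23 members were higher and 3 lower in MI against Sham, and 12 higher and 3 lower in MI+BPD against Sham. With totals without mitochondrial genes, 9 were higher in MI against Sham, and 4 were higher and 17 lower in MI+BPD against Sham. Limma-voom gave 1 member higher in MI+BPD against MI and 2 in MI+BPD against Sham, and a threshold of 0.01 gave 0 in the latter. Leaving out 1 library gave 0 to 6 members higher in MI+BPD against MI (6 without MI 3) and 0 to 1 in MI+BPD against Sham.

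The values that follow are of genes picked by the stated rule for giving values, both members and genes of the other lists. The log2 changes that turned with library totals in MI against Sham, with a call in at least 1 fit, were Psmb5 0.16, Psme2 0.46, Psme3 0.15, Psmf1 0.68, Psma5 0.64, Psmb1 0.27, Psmc4 0.40, Psmd8 0.63, Psmd9 0.65, Psmd10 0.62, Psmd5 0.65, Psmg4 0.63, Ngly1 0.32, Nploc4 0.33, Nfe2l1 0.19, Uba1 0.36, Stub1 0.016, Canx 0.22 and Jak1 0.40. In MI+BPD against Sham they were Psmb5 0.091 and Psmb10 0.40. With totals without mitochondrial genes they were Psme2 0.055, Psmf1 0.28, Psma5 0.24, Psmc4 0.0031, Psmd8 0.23, Psmd9 0.25 and Psmd5 0.25, and, with a call in neither fit, Psmd10 0.21, Psmg4 0.23 and, in MI+BPD against Sham, Psmb10 0.11. Of the members added after their values were seen, Psmd2, Psmd4, Psmd14 and Psmg2 also turned with library totals (0.07, 0.20, 0.37 and 0.04). Values of Akirin2 and Nfe2l2, also added, are not given here for library totals. The share of called genes that were higher in MI against Sham was 53.6% with TMM, 85.6% with library totals and 71.8% without mitochondrial genes.

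A replicate block, fitted although same-numbered libraries correlated by only −0.158 to 0.194 and 0 of 9 correlated best with their own number, left 35 members lower and 2 higher in MI against Sham, 0 in MI+BPD against MI, and 35 lower and 1 higher in MI+BPD against Sham.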
